A study of Mus musculus with 16 samples.

Results

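NF-κB is a family of transcription factors built from pairs of Rel proteins, and this account follows the transcripts of its subunits and regulators through mouse splenic B cells and multiple myeloma (MM). The set holds 10 genes, the subunits Nfkb1, Nfkb2, Rel, Rela and Relb, the inhibitors Nfkbia and Nfkbie, and the regulators Tnfaip3, Traf3 and Birc3. A probe set was taken as a member when the annotation of the array gave it one of these symbols alone. This rule found 16 probe sets for 8 of the 10 genes, of 45037 probe sets and 18193 named genes in all, and Nfkb1 and Traf3 were not analysed here.

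RNA was hybridized to Affymetrix 430 2.0 arrays in 3 groups. Nontransgenic B cells were B220+ splenic cells from 5 control mice aged 20 weeks, and Eμ-xbp-1s B cells were the same fraction from 5 mice of that age carrying the Eμ-xbp-1s transgene. Eμ-xbp-1s MM were 6 tumors from mice with the transgene, whose RNA was taken from the tumor without a described cell sort, and whose ages were not given in the labels. The transgene places the spliced form of mouse XBP-1, a transcription factor of the unfolded protein response and of plasma cells, together with eGFP under an immunoglobulin VH promoter and the Eμ enhancer, which act in B cells and in some T cells. The mice derived from injected C57BL/6 oocytes and a pair of independent founder lines was used, and which line each sample came from was not given. The labels number the arrays within a group without saying that each came from a separate tumor-bearing mouse, so p-values measure the spread between these arrays.

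In resting cells the Rel dimers are held in the cytoplasm by the IκB proteins, which Nfkbia (IκBα) and Nfkbie (IκBε) encode. In the classical pathway a kinase complex marks IκB for destruction and frees Rela and Rel dimers. In the alternative pathway the kinase NIK, held low by TRAF3 and the IAP proteins, leads to processing of the Nfkb2 product, which then pairs with Relb. Nfkbia, Tnfaip3, Nfkb2 and Birc3 are themselves induced by NF-κB, so that their transcripts are often read as a sign of pathway activity. The pathway supports survival of mature B cells, and in human myeloma genes of the alternative branch are recurrently mutated.

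Promoters of this family commonly carry the site that Rel proteins bind. Of the 250 bases before annotated starts (RefSeq sequences, build GRCm38.p6), 11 windows were available for 8 of the 10 genes, with none for Nfkb1 and Relb. The Rel protein site, searched on both strands, matched in 8 windows of 6 genes, beside 3.9% of all 32851 promoter windows of that length. The sites of the 5 measured genes that carry one are given here, because they are the letters NF-κB itself can read in these genes, with up to 10 bases on each side, read 5′ to 3′ on the strand of the gene, with the matched bases in capitals and their position given before the sequence. Where matches overlapped, 1 is shown.
Nfkb2, chr19:46304698-46304707, plus strand: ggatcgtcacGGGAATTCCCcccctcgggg
Nfkb2, chr19:46304726-46304735, plus strand: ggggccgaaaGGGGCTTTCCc
Nfkb2, chr19:46305459-46305468, plus strand: tccgacggcaGGAATGTCCCcacaaaagcc
Nfkb2, chr19:46305705-46305714, plus strand: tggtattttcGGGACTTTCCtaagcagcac
Rel, chr11:23771052-23771061, minus strand: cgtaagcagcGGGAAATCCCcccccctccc
Nfkbia, chr12:55492667-55492676, minus strand: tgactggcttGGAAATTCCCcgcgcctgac
Nfkbie, chr17:45555594-45555603, plus strand: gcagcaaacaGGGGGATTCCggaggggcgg
Tnfaip3, chr10:19015526-19015535, minus strand: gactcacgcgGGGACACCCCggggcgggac
Tnfaip3, chr10:19015413-19015422, minus strand: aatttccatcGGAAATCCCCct

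Nfkb2 stood out by the number of its windows, since each of the 3 available had a match. The annotated gene begins upstream of them, at chr19:46300994, where no window was available. The Nfkbia window is given whole as that of the classical feedback inhibitor, whose leading probe set differed little between the B cell groups. It lies at chr12:55492648-55492897 on the minus strand, ends at the base before the start, and has its Rel protein site in capitals.
Nfkbia promoter: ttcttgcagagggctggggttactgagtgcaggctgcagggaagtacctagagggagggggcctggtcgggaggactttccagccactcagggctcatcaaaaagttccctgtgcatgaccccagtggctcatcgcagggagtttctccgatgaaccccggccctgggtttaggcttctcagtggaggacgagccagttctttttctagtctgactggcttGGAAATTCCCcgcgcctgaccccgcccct

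A match is a description of letters and not a measured binding site. The Rela and Birc3 windows held no match to the Rel protein site.

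Properties of the arrays bear on every value below. Affymetrix arrays carry control probe sets for the 3′ and the 5′ end of Gapdh and Actb, and because labelling starts at the 3′ end, a high 3′ to 5′ ratio of intensities goes with broken RNA. The Gapdh ratio lay between 0.867 and 0.926 in nontransgenic B cells. Among Eμ-xbp-1s B cells it was 0.920, 0.965 and 1.06 on replicates 1, 2 and 5, and 2.41 and 1.97 on replicates 3 and 4. In MM it was 0.931, 0.970 and 1.03 on replicates 1 to 3, and 1.28, 1.499 and 1.39 on replicates 4 to 6. The Actb ratio gave the same B cell arrays as high, with 2.76 and 2.54 on Eμ-xbp-1s replicates 3 and 4, but it divided the tumors less cleanly. MM replicate 4 at 1.19 lay inside the nontransgenic range of 1.12 to 1.24, and MM replicate 3 at 1.28 lay above it. Results are therefore given for all arrays and again without the 5 arrays whose Gapdh ratio passed 1.2, a value chosen after the ratios were seen.

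The cell makeup differed as well. The summed intensity of 9 B cell markers was 36650.2 to 40107 in nontransgenic B cells, 17639 to 31714 in Eμ-xbp-1s B cells, 17592 to 17872 in MM replicates 1 to 3, and 3754, 1943 and 7302 in MM replicates 4 to 6. The sum of 8 plasma cell markers spanned 3751 to 16258 in MM and 11233 to 12722 in nontransgenic B cells, so MM arrays lay on both sides of the control range. Sdc1, which encodes the plasma cell antigen CD138, reached 110.3 to 264 in MM against 141 to 246 in nontransgenic B cells. Of 11 measured T cell markers, 10 were higher in Eμ-xbp-1s than in nontransgenic B cells. All 11 markers of stroma and endothelium together summed to 5227 to 13208 in MM and to 695 to 975 in nontransgenic B cells. Of the neutrophil markers, 7 of 11 tested were higher in Eμ-xbp-1s than in nontransgenic B cells, with sums of 10276 to 31314 against 1199 to 2058, and MM replicates 4 and 5 reached 71765 and 49808 while the other tumors lay at 1129 to 2178. Macrophage and monocyte markers summed to 8324 to 16222 in Eμ-xbp-1s and to 4119 to 6342 in nontransgenic B cells. Erythroid markers were high on Eμ-xbp-1s B cell replicate 3 and on MM replicates 4 and 5. In such bulk samples, fewer cells of a type and less RNA per cell cannot be told apart.

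Nfkb2, the precursor of the p52 subunit, had the widest range on the log2 scale among the leading probe sets of the subunits. On its leading probe set (the one with the highest mean over the 16 arrays), the intensity was 855, 1099, 748, 807 and 675 in nontransgenic B cells and 922, 793, 223, 336 and 495 in Eμ-xbp-1s B cells. The MM arrays read 776, 704 and 666 on replicates 1 to 3 and 225, 53.3 and 61.0 on replicates 4 to 6. Within both transgenic groups the lowest arrays were those with a high Gapdh ratio, and all 3 groups overlapped. The log2 fold change was -0.76 ± 0.34 (SE) for Eμ-xbp-1s against nontransgenic B cells, with an adjusted p of 0.237 in limma. For MM against nontransgenic B cells it was -1.70 ± 0.70 (adjusted p = 0.106), and without the 5 arrays of high ratio it was -0.21 (adjusted p = 0.353). The part of RNA breakage and of B cell content in the low arrays was not tested.

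The other Nfkb2 probe set, 1429128_x_at, behaved more evenly. Its intensity was 279, 265, 283, 298 and 287 in nontransgenic B cells, 214, 202, 197, 188 and 175 in Eμ-xbp-1s B cells, and 143, 143, 241, 107, 81.7 and 59.1 in MM. Every transgenic array, of either group, was below every nontransgenic array. Eμ-xbp-1s B cells were 1.45-fold lower than nontransgenic B cells (log2 fold change -0.54 ± 0.11, adjusted p = 0.009999), and the replicates of high Gapdh ratio, at 197 and 188, lay inside the range of the others. This call sat at the threshold of 0.01, since the adjusted p was 0.0240 with the replicate number as a block and 0.0265 without replicates 3 and 4, and it was lost when any 1 of the 10 arrays was left out. MM were 2.42-fold lower than nontransgenic B cells (log2 fold change -1.27 ± 0.29, adjusted p = 0.009851), a call kept in 11 of 24 alternatives, among them 2 of the 11 fits that left out 1 array, and MM replicates 1 to 3 alone gave -0.73 (adjusted p = 0.00915). The suffix x marks a probe set in which some probes match other sequences as well, so the value may not be of Nfkb2 alone.

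Relb, the partner of p52 in the alternative pathway, followed the leading Nfkb2 probe set from array to array. It read 338, 437, 342, 341 and 339 in nontransgenic B cells and 473, 438, 200.2, 325 and 313 in Eμ-xbp-1s B cells. MM replicates 1 to 3 read 413, 349 and 329, and replicates 4 to 6 read 178, 51.0 and 72.4. MM replicates 1 to 3 were thus at 91.5% to 115% of the nontransgenic mean, while their summed B cell markers were at 46.0% to 46.7% of it. Single markers differed widely there. Ms4a1 read 5531, 5485 and 3497 against 6225 to 7905 in nontransgenic B cells, and Cr2 read 49.4, 263 and 167 against 3213 to 3696. The sum is therefore no measure of the share of B cells. The log2 fold change of MM against nontransgenic B cells was -1.01 ± 0.51 (adjusted p = 0.176) over 6 arrays and 0.02 (adjusted p = 0.938) over those 3. Between the B cell groups it was -0.09 ± 0.21 (adjusted p = 0.858), and it turned to 0.17 without replicates 3 and 4. Over the 16 arrays the log2 values of Relb and the leading Nfkb2 probe set had a Pearson r of 0.970, and of 0.984 once each group's mean was removed. With Nfkb2 1429128_x_at the same values were 0.80 and 0.79. These points share their arrays, so RNA quality and cell makeup enter both genes.

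Rel, which encodes c-Rel, the subunit most prominent in lymphocytes, varied little. Nontransgenic B cells gave 280.3, 279.6, 296, 289 and 340.1, Eμ-xbp-1s B cells gave 254, 243, 206, 222 and 263, and MM ranged from 200.5 through a median of 234 to 282. The 2 B cell groups did not overlap, and MM overlapped Eμ-xbp-1s B cells on most arrays and nontransgenic B cells on replicate 6 alone. The difference was 1.25-fold between the B cell groups (log2 fold change -0.32 ± 0.12, adjusted p = 0.144) and 1.26-fold between MM and nontransgenic B cells (-0.34 ± 0.13, adjusted p = 0.0895), neither past the threshold. MM replicate 6, with one of the high Gapdh ratios and the lowest or next lowest values for Nfkb2, Relb and Birc3, was thus high for Rel.

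Rela, the transactivating subunit of the classical pathway, read 1136, 1330.4, 1323, 1436 and 1462 in nontransgenic B cells and 1598, 1355, 1014, 1221 and 1591 in Eμ-xbp-1s B cells. In MM it ranged from 464 on replicate 6 through a median of 1112 to 1423 on replicate 4. All groups overlapped. The log2 fold change was 0.00 ± 0.15 between the B cell groups (adjusted p = 0.993) and -0.41 ± 0.25 for MM against nontransgenic B cells (adjusted p = 0.267). The former turned negative when arrays were rescaled to one median (-0.0012) or quantile normalized (-0.04).

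**Figure D1:**
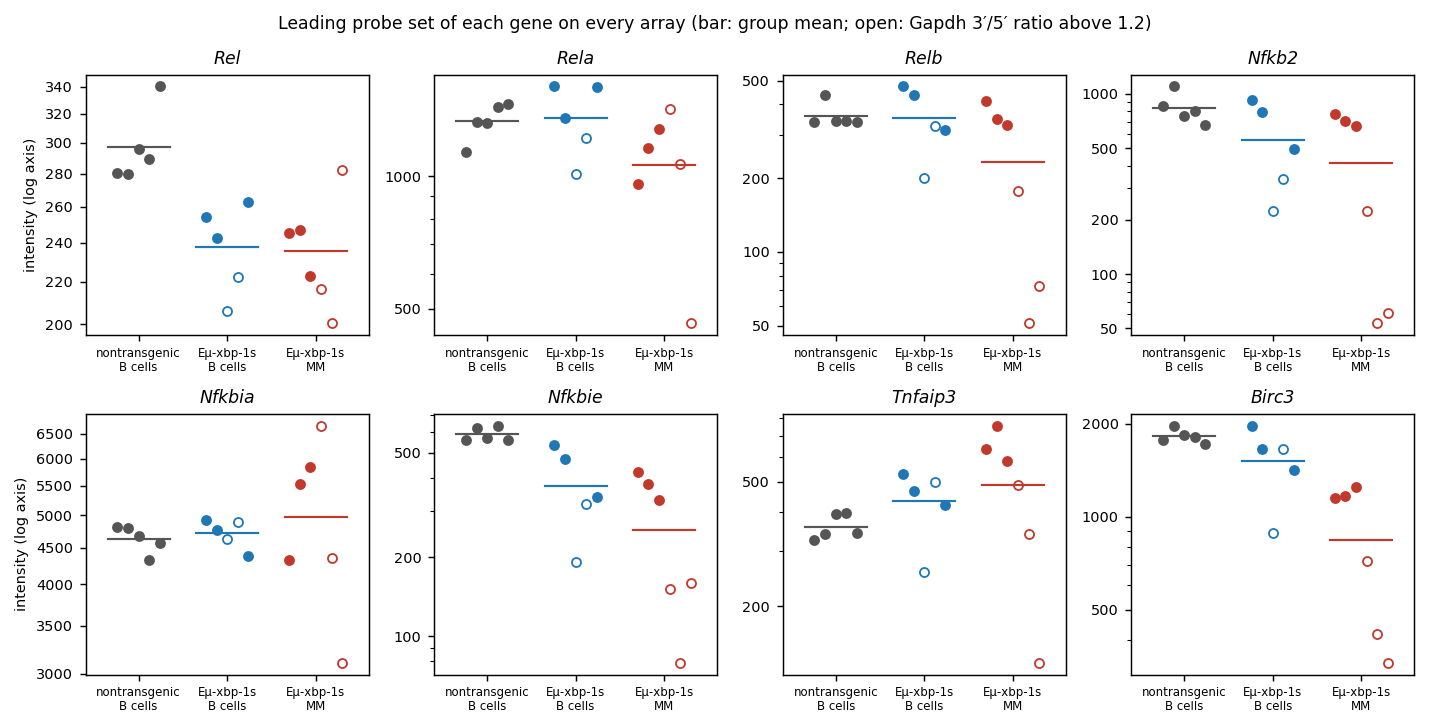
Intensity (log axis, a different range in each panel) of the leading probe set of each gene on every array of nontransgenic B cells, Eμ-xbp-1s B cells and Eμ-xbp-1s MM. Bars are group means and open circles are the 5 arrays with a Gapdh 3′ to 5′ ratio above 1.2, which hold the lowest single value of Nfkb2, Relb and Nfkbie in both transgenic groups.

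The inhibitors differed from each other. Nfkbia, whose product IκBα is rebuilt after each round of NF-κB activation, had 5 probe sets. On the leading one, 1420088_at, nontransgenic B cells read 4818, 4798, 4669, 4321 and 4567 and Eμ-xbp-1s B cells read 4924, 4760.1, 4626, 4886 and 4388. MM ranged from 3108 on replicate 6 through a median of 4942 to 6674 on replicate 4. The groups overlapped, with log2 fold changes of 0.03 ± 0.10 between the B cell groups (adjusted p = 0.924) and of 0.06 ± 0.19 for MM against nontransgenic B cells (adjusted p = 0.853). The latter turned to -0.04 with rescaled medians and to -0.02 with quantile normalization.

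The Nfkbia probe sets 1438157_s_at, 1449731_s_at and 1448306_at split both B cell groups by replicate number rather than by genotype. On 1448306_at replicates 1 and 2 read 2183 and 2218 in nontransgenic and 2587 and 2379 in Eμ-xbp-1s B cells, whereas replicates 3 to 5 read 1488, 1438 and 1419 in the former and 1079.7, 1299 and 1356 in the latter. The nontransgenic arrays show that split too, and their Gapdh ratios hardly differ. Their Actb ratios, however, were 1.1249 and 1.1233 on replicates 1 and 2, and 1.2425, 1.2014 and 1.2071 on replicates 3 to 5. The part of RNA breakage in this split was not tested, and whether the numbers mark a shared day was not given. In MM these 3 probe sets were lowest on replicates 5 and 6, at 535 to 986. None of the 3 passed the threshold in any comparison.

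The fifth, 1420089_at, ran the other way. It read 509.6, 511, 614, 629 and 665 in nontransgenic B cells and 563, 486, 807, 970.4 and 722 in Eμ-xbp-1s B cells, and was highest where the other 3 were low. MM read 259, 288, 333, 431, 398 and 442, all below every B cell array of either genotype. The log2 fold change of MM was -0.73 ± 0.17 against nontransgenic (adjusted p = 0.0117) and -0.97 ± 0.22 against Eμ-xbp-1s B cells (adjusted p = 0.0174), both above the threshold of 0.01, and the former was called in 8 of 24 alternatives and the latter in 2 of 25. With MM replicates 1 to 3 alone it was -0.996 against nontransgenic B cells (adjusted p = 0.000435), so this probe set did not lose its difference when the arrays of high ratio left. The probe sets of Nfkbia therefore do not give one answer, and the files do not say which part of the transcript each one reads.

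**Figure D2:**
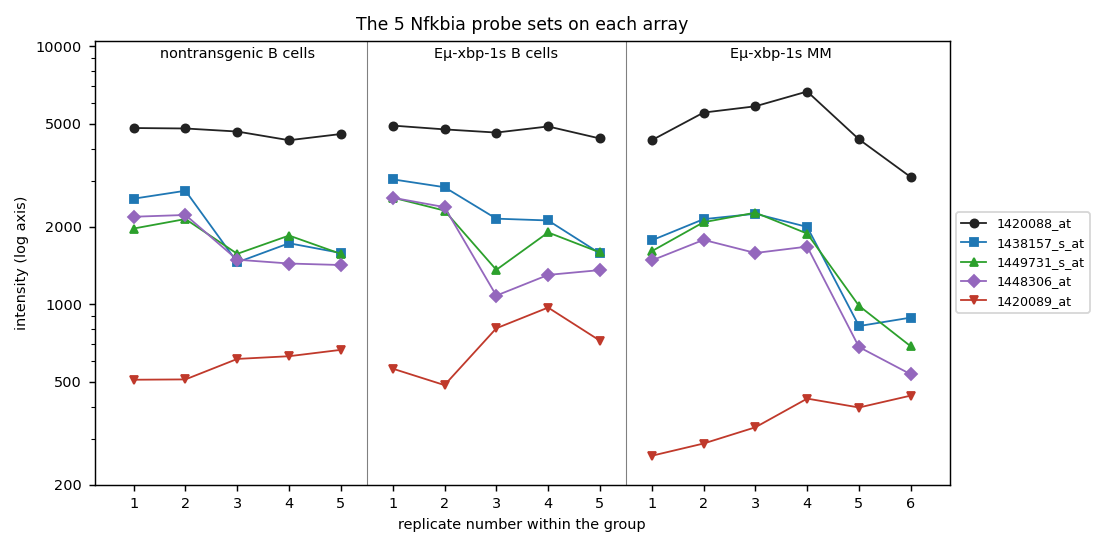
Intensity (log axis) of the 5 Nfkbia probe sets on each array, by replicate number within nontransgenic B cells, Eμ-xbp-1s B cells and Eμ-xbp-1s MM. The leading probe set stays between 4321 and 4924 in the B cell groups, and 1420089_at lies at 259 to 442 in MM, below all B cell arrays.

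Nfkbie, which encodes IκBε, an inhibitor that restrains Rel and Rela dimers, was lower on the transgenic arrays by its leading probe set. Its leading probe set read 561, 620.1, 568, 635 and 562 in nontransgenic B cells and 536, 475, 191, 319 and 339 in Eμ-xbp-1s B cells. MM read 423, 382 and 329 on replicates 1 to 3 and 152, 79.1 and 159 on replicates 4 to 6. Nontransgenic B cells overlapped with neither group. The log2 fold change was -0.75 ± 0.24 between the B cell groups (adjusted p = 0.0880) and -1.45 ± 0.38 for MM against nontransgenic B cells (adjusted p = 0.0192), neither past 0.01. Among arrays of low Gapdh ratio, MM remained below nontransgenic B cells by 1.56-fold (log2 fold change -0.65, adjusted p = 0.00258), whereas the B cell groups gave -0.41 (adjusted p = 0.187). The other probe set, 1458299_s_at, had log2 fold changes of the same sign, -0.31 (adjusted p = 0.321) and -1.67 (adjusted p = 0.0460), and its lowest MM array was at 23.0. On it the B cell groups overlapped. Among arrays of low Gapdh ratio it gave -0.46 for MM against nontransgenic B cells and did not pass (adjusted p = 0.0178).

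Tnfaip3, a ubiquitin-editing enzyme known as A20 that switches NF-κB signalling off, was higher on MM replicates 1 to 3 than in every nontransgenic array. The leading probe set read 325, 341, 393, 396 and 342 in nontransgenic B cells and 529, 467, 257, 497 and 421 in Eμ-xbp-1s B cells. In MM it read 636, 755 and 582 on replicates 1 to 3, and 488, 341 and 132 on replicates 4 to 6. Over all arrays the groups overlapped, and the log2 fold change of MM against nontransgenic B cells was 0.26 ± 0.37 (adjusted p = 0.662). Among arrays of low Gapdh ratio the groups no longer overlapped, and MM were 1.83-fold higher (log2 fold change 0.87, adjusted p = 0.000666). The other probe set, 1450829_at, moved likewise, with 253, 243 and 183 on MM replicates 1 to 3 against 105 to 137 in nontransgenic B cells (log2 fold change 0.90, adjusted p = 0.00119). Eμ-xbp-1s replicates 1, 2 and 5 lay above the nontransgenic range as well on the leading probe set, with a log2 fold change of 0.39 that did not pass (adjusted p = 0.126). Both probe sets were also called higher in MM by a fit that weighted each array. Its weights came from how far an array lay from its group in these same data, so that fit is not separate support. Of the 11 fits that left out 1 array, 0 called either probe set. MM replicates 1 to 3 carried macrophage markers summing to 26805 to 27991 against 4119 to 6342 in nontransgenic B cells, T cell markers summing to 4092 to 5447 against 1760.4 to 2018, and stroma markers at 10178 to 13208. The part of these cells in the Tnfaip3 level was not tested.

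Birc3, an IAP ubiquitin ligase that acts with the TRAF proteins, was lower in MM on both of its probe sets. The leading one read 1778, 1962, 1838, 1812 and 1718 in nontransgenic B cells, 1971, 1663, 887, 1658 and 1418 in Eμ-xbp-1s B cells, and 1154, 1170.1, 1245, 719, 419.6 and 338 in MM. No MM array reached the nontransgenic range. The log2 fold change of MM against nontransgenic B cells was -1.29 ± 0.34 over all arrays (adjusted p = 0.0175) and -0.61 over replicates 1 to 3 (adjusted p = 0.00160), which is 1.53-fold lower.

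The dimmer Birc3 probe set, 1425223_at, gave the firmest difference of the set. Nontransgenic B cells read 165, 157, 156, 209 and 157, and Eμ-xbp-1s B cells read 155, 137, 108, 137 and 75.6. MM read 16.03, 31.8, 74.6, 10.015, 16.9 and 9.75, so 5 of the 6 were under the floor of 50 set before taking logs, which makes the fold change a bound. MM were at least 3.14-fold lower than nontransgenic B cells (log2 fold change -1.65 ± 0.15, adjusted p = 3.40e-05) and at least 2.22-fold lower than Eμ-xbp-1s B cells (-1.15 ± 0.21, adjusted p = 0.005781). Against nontransgenic B cells the call held in all 24 alternatives that were run, replicates 1 to 3 alone included (-1.56, adjusted p = 6.78e-05). Against Eμ-xbp-1s B cells it held in 11 of 25, among them 3 of the 11 that left out 1 array, and without the arrays of high ratio the adjusted p was 0.0567.

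**Figure D3:**
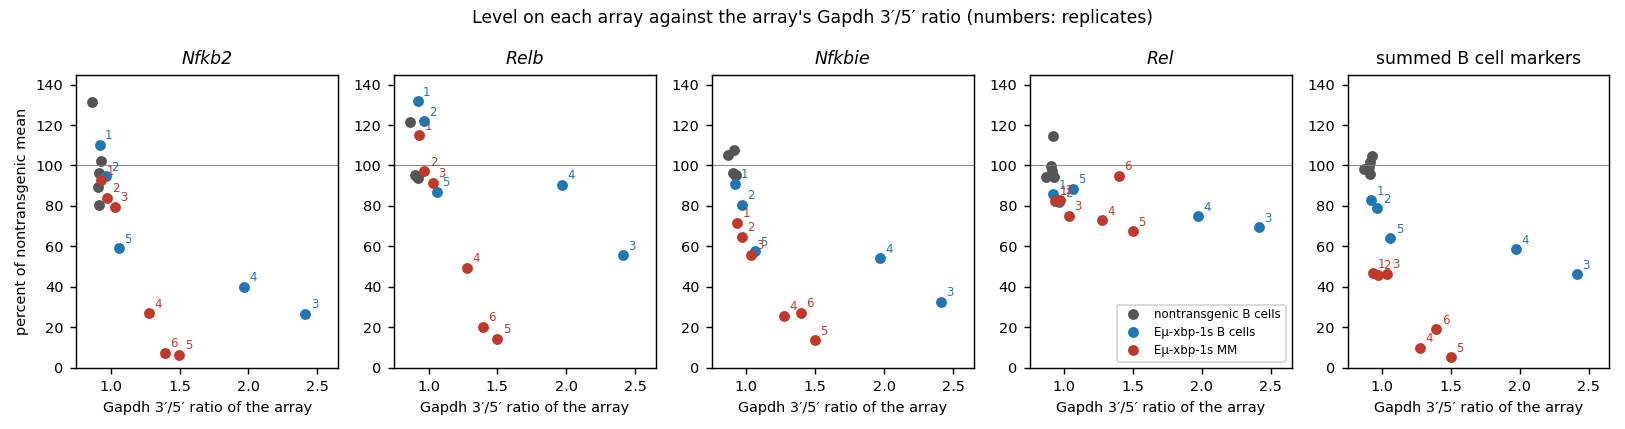
Leading probe sets of Nfkb2, Relb, Nfkbie and Rel, and the summed B cell markers, in percent of their nontransgenic mean (vertical) against the Gapdh 3′ to 5′ ratio of the array (horizontal), with replicate numbers for the transgenic groups. MM replicates 1 to 3 lie near the controls for Relb and at 46.0% to 46.7% for the summed B cell markers, and MM replicates 4 to 6 are low for both. Single B cell markers differ, so the sum is no measure of the share of B cells.

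Eμ-xbp-1s B cells were compared with nontransgenic B cells to ask what the transgene changes before disease. Of the 16 probe sets, all of which were bright enough to be tested, 1 was lower and 0 were higher (limma, Benjamini-Hochberg adjusted over 20596 probe sets), beside 0.481% of all probe sets lower and 2.75% higher. The one was Nfkb2 1429128_x_at. At an unadjusted p under 0.05 there were 5 lower and 0 higher, beside 9.47% and 10.6% of all. On 4 probe sets (Birc3 1425223_at, Nfkb2 1429128_x_at, Nfkbie 1431843_a_at and Rel) every Eμ-xbp-1s array was below every nontransgenic one, beside 3.37% of all probe sets, and on 0 was the order reversed, beside 5.6%. The median log2 fold change of the members was -0.20 and that of all probe sets -0.05. Without Eμ-xbp-1s replicates 3 and 4 no member was called in either direction (backgrounds of 0.305% lower and 2.55% higher), and the median was 0.01 beside 0.02.

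MM were compared with Eμ-xbp-1s B cells to ask what changes between the transgenic B cell and the tumor. Here 1 probe set was lower, Birc3 1425223_at, and 0 were higher, beside 1.91% and 1.28% of 22194 probe sets. At an unadjusted p under 0.05, 5 were lower (15.2% of all) and 0 higher (11.4% of all). The groups failed to overlap on 2 probe sets, Birc3 1425223_at and Nfkbia 1420089_at, both with MM lower, beside 4.15% of all, and on 0 with MM higher, beside 4.04%. The median log2 fold change was -0.64 for the members and 0.00 for all probe sets, and without the arrays of high ratio it was -0.18 beside 0.04, with 0 members called lower (1.75% of all) and 0 higher (3.54% of all).

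Against nontransgenic B cells, 2 probe sets were lower in MM (Birc3 1425223_at and Nfkb2 1429128_x_at) and 0 were higher, beside 5.65% and 3.95% of 21894 probe sets. At an unadjusted p under 0.05, 8 were lower and 0 higher, with 20.2% and 15.1% of all. On 6 probe sets all MM arrays were below all nontransgenic arrays, beside 9.55% of all, and on 0 above them, beside 6.59%. The 6 came from Birc3 and Nfkbie (both probe sets each), Nfkb2 and Nfkbia. The median log2 fold change was -0.64 beside -0.03. The 2 comparisons of MM share the MM arrays, and the comparisons with nontransgenic B cells share those, so the 3 are not independent of each other.

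**Figure D4:**
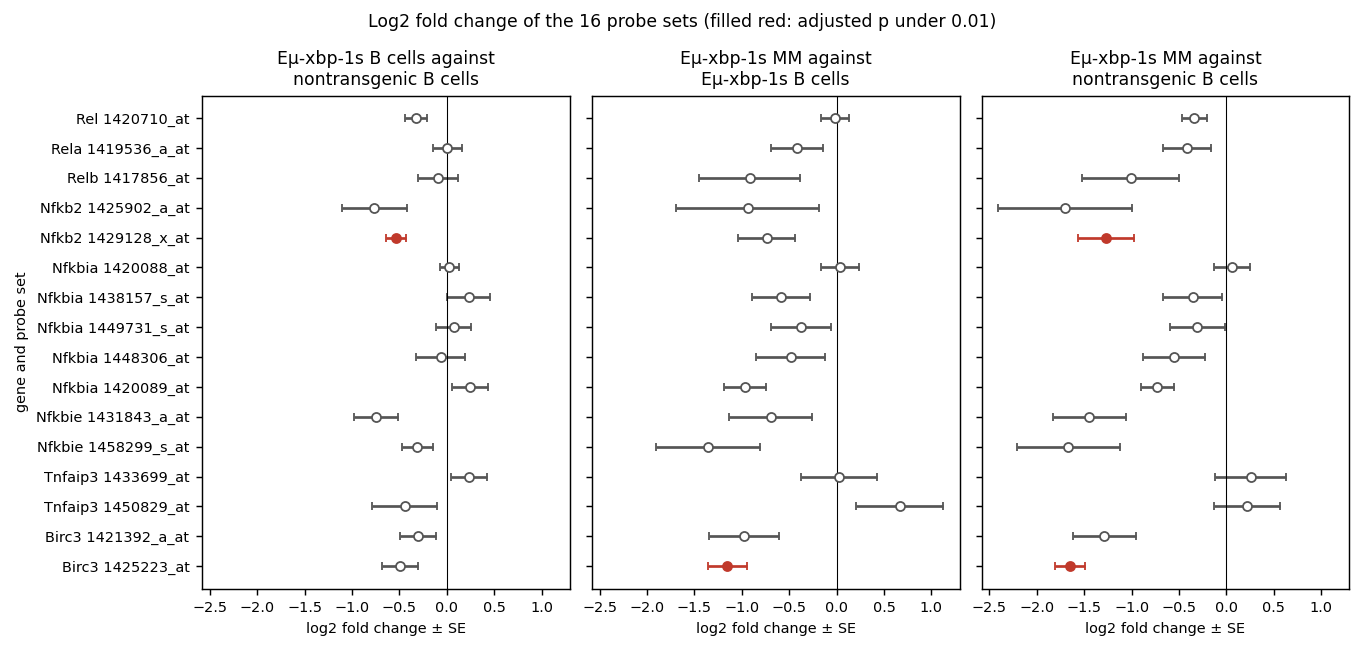
Log2 fold change ± SE of the 16 probe sets in the 3 comparisons, with filled red points for an adjusted p under 0.01. Calls are confined to Nfkb2 1429128_x_at and Birc3 1425223_at, and the widest error bars belong to Nfkb2 1425902_a_at in the MM comparisons.

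When the comparison of MM with nontransgenic B cells was limited to MM replicates 1 to 3, 7 of the 16 probe sets were called. Of these, 5 were lower (Birc3 on both probe sets, Nfkb2 1429128_x_at, Nfkbia 1420089_at and Nfkbie 1431843_a_at) beside 7.52% of all probe sets, and 2 were higher (Tnfaip3 on both probe sets) beside 12.7%. Rel, Rela, Relb, the leading Nfkb2 probe set and the other 4 Nfkbia probe sets did not pass. The SE of the leading Nfkb2 probe set fell from 0.70 to 0.16, as the 3 arrays differ little among themselves. The median log2 fold change was then -0.23 beside 0.05 over all probe sets. The 3 arrays also had a B cell marker level below and macrophage, T cell and stroma marker levels above those of nontransgenic B cells, and these cannot be told apart from the genotype or the tumor state here.

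**Figure D5:**
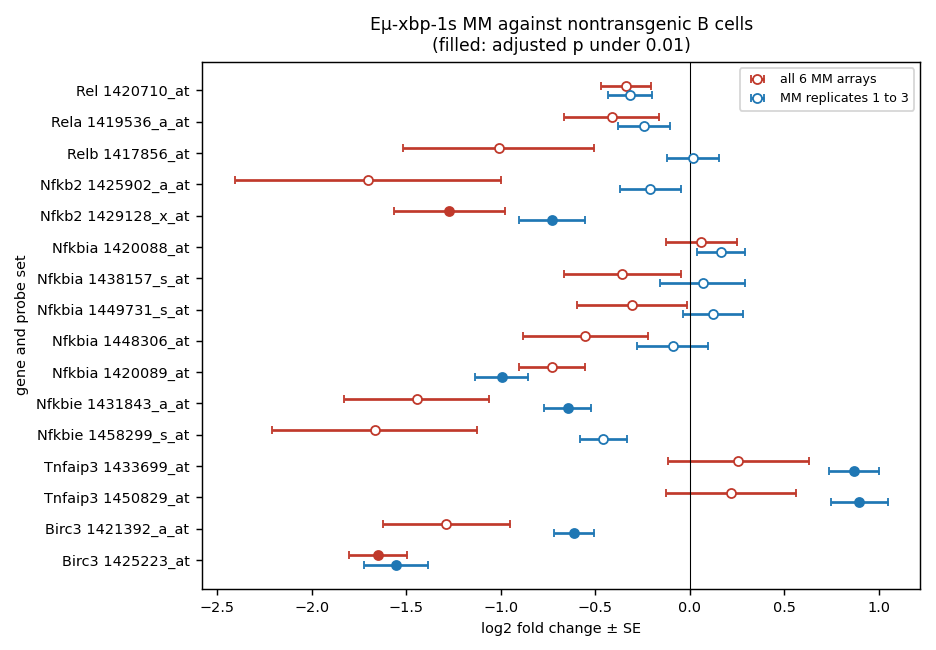
Log2 fold change ± SE of MM against nontransgenic B cells for each probe set, with all 6 MM arrays (red) and with MM replicates 1 to 3 (blue), filled where the adjusted p was under 0.01. With 3 arrays, Tnfaip3 rises to 0.87 and 0.90, while Relb and the leading Nfkb2 probe set come to 0.02 and -0.21.

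By the median over all arrays, the members spread more than the tested probe sets as a whole in the transgenic groups. The median standard deviation of the members' log2 values was 0.16 in nontransgenic B cells, 0.41 in Eμ-xbp-1s B cells and 0.73 in MM, beside 0.20, 0.33 and 0.45 over all 22803 tested probe sets. The arrays of high Gapdh ratio enter these values, and the spread was not computed without them. The highest value in MM was 1.79, for the leading Nfkb2 probe set. In Eμ-xbp-1s B cells, replicate 3 was the lowest on 10 of the 16 probe sets and replicate 1 the highest on 14. In MM, replicate 6 was lowest on 9 and replicate 5 on 6.

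The other genes of the pathway were read from 85 listed receptors, adaptors, kinases, IκB proteins and targets, each by its brightest probe set. Comparing the B cell groups, 4 of 68 tested genes rose with the transgene and 0 fell, beside 3.28% and 0.192% of all genes. They were the receptors Tnfrsf1b (TNF receptor 2) and Cd27, the IκB kinase relative Ikbke and the chemokine Ccl5. Ccl5 went from 243 ± 54.6 to 1845 ± 385 (SD, n = 5 each), a log2 fold change of 2.92 (adjusted p = 1.30e-06). Cd27 went from 119 ± 17.3 to 264 ± 45.4 (log2 fold change 1.14, adjusted p = 0.00057) and Ikbke from 73.5 ± 18.8 to 193 ± 17.2 (1.43, adjusted p = 0.000234). All 4 were called again without replicates 3 and 4, but a fit of all 3 groups together called 1 pathway gene higher. Ccl5 and Cd27 are also expressed by T and NK cells, whose markers were higher on the same arrays (T cell sums of 6986 to 9273 against 1760.4 to 2018, NK cell sums of 2879 to 5181 against 1163 to 1588). Sums of neutrophil markers (10276 to 31314 against 1199 to 2058) and of macrophage and monocyte markers (8324 to 16222 against 4119 to 6342) were higher there too. The part of all these cells in the 4 genes, Tnfrsf1b and Ikbke included, was not tested.

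In MM against nontransgenic B cells 6 of 71 tested pathway genes rose and 5 fell, beside 4.66% and 4.76% of all genes. The genes that rose were the receptors Ltbr, Il1r1 and Cd27 and the chemokines Ccl3, Ccl4 and Cxcl13. Il1r1, Ccl3 and Cxcl13 reached at most 40.7, 101 and 74.3 in nontransgenic B cells. They were bright enough to be tested here owing to their MM arrays, which favours a rise. Il1r1 was under the floor of 50 on every nontransgenic array, so its fold change is a bound. Ltbr, the lymphotoxin β receptor that feeds the alternative pathway, went from 153 ± 21.0 (n = 5) to 291 ± 68.1 (n = 6), a log2 fold change of 0.91 (adjusted p = 0.0037). Cxcl13, a B cell attractant made by stroma, went from 54.9 ± 11.5 to 672 ± 451 (3.26, adjusted p = 0.000621). The genes that fell were Traf5, Malt1, Nfkbid, Irf4 and Ccr7. Malt1, the protease of the antigen receptor branch, fell from 1461 ± 176 to 373 ± 249.5 (log2 fold change -2.24, adjusted p = 0.00279), and Nfkbid, a nuclear IκB protein, from 637 ± 92.2 to 173 ± 57.3 (-1.95, adjusted p = 0.000363). By list, 3 of 12 receptors rose, 2 of 18 adaptors and ubiquitin enzymes fell, 0 of 8 kinases passed, 1 of 10 other IκB proteins and nuclear cofactors fell, and of 24 targets 3 rose and 2 fell. With MM replicates 1 to 3 alone 16 genes rose and 9 fell, beside 13.6% and 7% of all genes. Marker sums of stroma and endothelium were 5227 to 13208 in MM against 695 to 975 in nontransgenic B cells. Those of macrophages and monocytes were 9796 to 45216 against 4119 to 6342, and those of B cells 1943 to 17872 against 36650.2 to 40107. The part of cell makeup in the genes that rose or fell was not tested.

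Among the pathway genes that did not pass in MM against nontransgenic B cells, the pair of each list with the highest nontransgenic mean gave log2 fold changes between -3.49 and -0.28. Of the receptors, Tnfrsf13c, which binds the survival factor BAFF, went from 1621 to 697 (log2 fold change -1.73, adjusted p = 0.0445), and Tnfrsf13b, which binds BAFF and APRIL, from 1241 to 418 (-1.93, adjusted p = 0.0221). Of the adaptors, Bcl10, the partner of Malt1, went from 2048 to 1800 (-0.28, adjusted p = 0.465) and Sharpin from 830 to 463 (-0.96, adjusted p = 0.0436). Of the kinases, Ikbkb went from 1443 to 624 (-1.37, adjusted p = 0.0146) and Tbk1 from 839 to 681 (-0.35, adjusted p = 0.285). All 6 were lower in the mean without passing the threshold. Choosing genes by their nontransgenic mean favours genes lower in MM, so the named genes do not stand for their lists. By list, the median log2 fold change was 0.13 for receptors, -0.47 for adaptors and ubiquitin enzymes and -0.17 for kinases. It was -0.25 for other IκB proteins and nuclear cofactors and 0.15 for targets, beside -0.03 over all probe sets. That last median counts every probe set, whereas the lists take 1 per gene. The inhibitor Nfkbib (362 and 268) and the nuclear cofactor Bcl3 (356 and 326) gave -0.53 and -0.42. Of the targets, Cd74 went from 10105 to 5561 (-1.29, adjusted p = 0.116) and lymphotoxin β, Ltb, from 3110.3 to 536 (-3.49, adjusted p = 0.0113). Between MM and Eμ-xbp-1s B cells 2 pathway genes rose (Il1r1 and Cxcl13) and 2 fell (Nfkbid and Ccr7) of 71, beside 1.49% and 1.67% of all genes. Both that rose were too dim to be tested between the B cell groups and were tested here owing to their MM arrays. Il1r1 reached at most 44.3 in Eμ-xbp-1s B cells, under the floor of 50, so its fold change is a bound.

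A published index of NF-κB activity in human myeloma rests on 11 genes, 6 of which (Birc3, Tnfaip3, Nfkb2, Nfkbie, Relb and Nfkbia) belong to the present set. Of its mouse counterparts 9 were tested. Their median log2 fold change was -0.31 between the B cell groups, -0.92 from transgenic B cells to MM, and -1.29 from nontransgenic B cells to MM. Over all arrays a single gene of the 9, Malt1, was called, and only in MM against nontransgenic B cells. The median over all probe sets, which counts every probe set and not 1 per gene, was -0.05, 0.00 and -0.03 in the same comparisons. B cell marker sums were 1943 to 17872 in MM against 36650.2 to 40107 in nontransgenic B cells. The part of cell makeup in the index genes was not tested, so these medians are no measure of NF-κB activity in tumor cells. MM replicates 1 to 3 alone gave, against nontransgenic B cells, -0.61 for Birc3, 0.87 for Tnfaip3, -0.21 for Nfkb2 and -0.65 for Nfkbie. Relb gave 0.02, Nfkbia 0.16 and Malt1 -1.50, and the median of the 9 was not computed for those arrays. Of these genes Birc3, Tnfaip3, Nfkbie and Malt1 then passed the threshold. Cd74, the invariant chain and another gene of that index, read 10105 ± 273 in nontransgenic B cells and 924 to 9429 over the MM arrays, so that the index genes shared the wide spread of the MM group.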

How the data were processed

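The authors hybridized RNA to Affymetrix 430 2.0 arrays and, per their methods, normalized all arrays in dChip to the array of median overall intensity and computed model-based values of perfect match minus mismatch. The deposited values are linear intensities for 45101 probe sets, with a lowest value of 1. After 64 controls were set aside, 34958 probe sets had one gene in the array annotation, 932 several, and 9211 were not listed. Values under 50 were set to 50 and log2 values tested with limma 3.58.1 (R 4.3.3, lmFit and eBayes) for each pair of groups, keeping a probe set if over 20% of the arrays compared exceeded 100, with Benjamini-Hochberg adjustment over all probe sets tested and a threshold of 0.01. limma replaces the SAM test of the methods. The 10 members and all gene lists were chosen with earlier results of these data known. Named genes are all members, pathway genes past the threshold, and per list 2 that did not pass, by their mean in nontransgenic B cells. The main fits used no pairing of arrays, and the replicate number entered as a block in an alternative only. Deviations of same-numbered arrays of the 2 B cell groups correlated at 0.176 to 0.527 in all 5 pairs. The closest nontransgenic array had the same number for Eμ-xbp-1s replicates 2 and 3 alone, so the numbers are not established as pairs. Alternatives changed the floor, filter, normalization, variance model, samples and replicates, and those on erythroid markers and on the 3′ to 5′ ratio were chosen after seeing the data. Scripts were tested on simulated data. Array medians were 69.0 to 82.9, and the number of arrays limits the precision.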

Additional observations from a re-analysis of the deposited data

Results flagged for a closer look

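Over 48 combinations of a probe set and a group, 5 held one array far from the others by Dixon's test, where chance alone flags about 1 in 20. Relb read 437 on nontransgenic replicate 2 while the other 4 lay between 338 and 342. Rel read 340.1 on nontransgenic replicate 5 and 279.6 to 296 on the rest. Rela read 464 on MM replicate 6 and 959 to 1423 on the other 5 tumors. Birc3 1425223_at read 209 on nontransgenic replicate 4 against 156 to 165, and 74.6 on MM replicate 3 against 9.75 to 31.8, where only replicate 3 was above the floor of 50. The other 5 MM arrays were equal once set to 50, so this last flag was bound to occur. It does not bear on the share of 1 in 20.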

How the results depend on the processing

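The 1 member lower in Eμ-xbp-1s than in nontransgenic B cells became 0 with all 3 groups in one fit, with probe sets averaged per gene, with the replicate block, with the standard deviation filter, and without arrays of high 3′ to 5′ ratio, and was 0 to 0 when any one replicate was left out. The 1 member lower in MM than in Eμ-xbp-1s B cells became 2 with all 3 groups, array weights or an adjusted p under 0.05, and 0 with a floor of 100, the mean of probe sets, no filter, the replicate block, without MM replicates 4 and 5, without erythroid-rich arrays and without arrays of high ratio, and was 0 to 1 with one replicate left out. The 2 members lower in MM than in nontransgenic B cells became 4 with all 3 groups, 5 with array weights, with median scaling and without arrays of high ratio, 1 with a floor of 16, the mean of probe sets or no filter, and 6 at an adjusted p under 0.05, and were 1 to 3 with one replicate left out. The 0 members higher there became 2 with array weights and without arrays of high ratio. In MM the replicate numbers did not pair the arrays (same-numbered arrays correlated at -0.284 to 0.442). Against nontransgenic B cells the replicate block left 2 members lower, but Nfkb2 1429128_x_at was lost (adjusted p = 0.0182) and Nfkbia 1420089_at was gained (adjusted p = 0.00851).

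Of the other pathway genes, the 4 higher in Eμ-xbp-1s B cells became 1 with all 3 groups. In MM against Eμ-xbp-1s B cells the 2 higher became 4 with all 3 groups and without arrays of high ratio, 0 with a floor of 100 and 1 with no filter, and the 2 lower became 5 with all 3 groups and 0 with no filter. In MM against nontransgenic B cells the 6 higher became 16 without arrays of high ratio, and the 5 lower became 8 with all 3 groups, 2 with no filter and 9 without arrays of high ratio.

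Among log2 fold changes of leading probe sets that did not pass, the sign turned as follows. Between the B cell groups, Rela turned to -0.0012 with median scaling and -0.0355 with quantile normalization (-0.0599 to 0.10 with one replicate left out), and Relb to 0.27 with array weights and 0.17 without arrays of high ratio (-0.22 to 0.0925, positive without Eμ-xbp-1s replicate 3). In MM against Eμ-xbp-1s B cells, Nfkb2 turned to 0.0017 without arrays of high ratio. Nfkbia turned to -0.0585 with median scaling, -0.13 with quantile normalization, -0.0459 without MM replicates 4 and 5 and -0.0526 without erythroid-rich arrays (-0.0596 to 0.16). Rel turned to 0.0566 with quantile normalization, 0.0695 without MM replicates 4 and 5 and 0.0199 without erythroid-rich arrays (-0.0691 to 0.0295). Tnfaip3 turned to -0.0698 with median scaling and -0.12 without erythroid-rich arrays (-0.16 to 0.36). In MM against nontransgenic B cells, Nfkbia turned to -0.0390 with median scaling, -0.0187 with quantile normalization and -0.0207 without MM replicates 4 and 5 (-0.0343 to 0.19), and Relb to 0.0173 without arrays of high ratio. Median scaling moved the median of all probe sets to -0.09 and -0.14 in the MM comparisons, from 0.00 and -0.03. The causes were not tested, and signals under the floor of 50 have no order.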

Other observations

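For each leading probe set, the named gene whose log2 values ran most nearly in parallel over the 16 arrays was sought among 10190 genes. Nfkb2 was closest to Vps28 (r = 0.984) and Commd4 (0.976), Nfkbie to Ddx41 (0.983) and Hvcn1 (0.975), Birc3 to Map2k1 (0.977) and Nr3c1 (0.977), and Relb to H2-DMa (0.974) and Ly6e (0.973). With group means removed, r stayed at 0.957 or above for these 8 pairs. The other members had less close partners, with Man2a1 for Tnfaip3 (0.943), Samsn1 for Rela (0.932), Snapc2 for Rel (0.902) and Pirb for Nfkbia (0.890). The arrays of high 3′ to 5′ ratio enter every one of these values.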
